A study of Caenorhabditis elegans with 2 samples.

Results

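The 261 microRNA (miRNA) genes described here are all genes of biotype miRNA among the 46926 genes of the Ensembl annotation of the Caenorhabditis elegans genome WBcel235. The rule that selects them uses annotation alone, but it was chosen with earlier results of these data known. All of them lie among the 46890 nuclear genes. The study sequenced DNA precipitated with chromatin (ChIP-seq) of the protein WAGO-9, also named HRDE-1. All samples form 1 group of 2 biological replicates from whole hermaphrodite young adults of strain YL557, collected 48 hours after synchronization of larvae that had been starved at the L1 stage. YL557 is a transgenic line that stably expresses WAGO-9 with GFP-FLAG at its C-terminus. The sample description names an anti-GFP antibody and the antibody field reads hrde-1. The promoter of the transgene is not given in the sources used here, and whole animals hold somatic as well as germ cells. No untagged or control sample was analysed here, and no comparison between groups was possible.

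A miRNA gene encodes a hairpin precursor, which Drosha and Dicer cut to a mature miRNA of the 5′ arm (5p) or the 3′ arm (3p). In worms the mature miRNA is held mainly by the Argonautes ALG-1 and ALG-2 and finds its messenger RNAs through its seed. HRDE-1 is a nuclear Argonaute of the germ line that is known to hold secondary small interfering RNAs, not miRNAs, and to silence genes and transposons across generations. In ChIP-seq it is read out as DNA near the protein, so a peak at a miRNA gene is a site on chromatin and says nothing of the miRNA bound by a protein. The mir-35 family is known as maternal and early embryonic and is essential for embryogenesis. The mir-51 family acts broadly in the embryo, and lin-4 and the let-7 family time larval development.

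The mature sequences of miRNA genes at the strongest sites are printed first, since they show which of these genes belong to 1 seed family. They were read from RefSeq, WBcel235, with the seed (bases 2 to 8) in capitals.
mir-35 3p: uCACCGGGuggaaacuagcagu
mir-36 3p: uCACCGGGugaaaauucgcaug
mir-37 3p: uCACCGGGugaacacuugcagu
mir-45 3p: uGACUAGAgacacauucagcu
mir-61 3p: uGACUAGAaccguuacucauc
mir-51 5p: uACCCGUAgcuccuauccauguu
mir-250 3p: aAUCACAGucaacuguuggc
mir-1829b 3p: cAACCACUggaauuucucuauu
mir-4936 3p: uGCUUUGUggcuuugcuggua
mir-5549 3p: uCAUGUUGguuuuuuguuggu
mir-8196a 3p: gUAGUUAAuuuuucuuugggaau
mir-8196b 3p: uGUAGUUAauuuuuucuuugggaa
The seed CACCGGG is shared by mir-35 to mir-42, and mir-45 and mir-61 share GACUAGA with mir-44 and mir-247. The annotated mature strands of mir-8196a and mir-8196b begin 1 base apart in a shared stretch, so their seeds read UAGUUAA and GUAGUUA. RefSeq gave a mature sequence for 260 of the 261 genes.

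Some summits at these genes lay near letters known from another gene class. The B box is the internal promoter of tRNA genes that the factor TFIIIC binds, searched here on both strands as GTTCGANNC, where N is any base. It was found within 150 bp of the summits at mir-51, mir-1829b and mir-4936, and these windows are shown because no annotated tRNA gene starts within 500 bp of those summits. Capitals mark the match, and each window runs 36 bases beyond it on either side in WBcel235.
mir-51, IV:11026119-11026199, minus strand: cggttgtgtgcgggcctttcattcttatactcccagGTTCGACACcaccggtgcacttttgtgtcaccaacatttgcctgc
mir-1829b, X:14977036-14977116, plus strand: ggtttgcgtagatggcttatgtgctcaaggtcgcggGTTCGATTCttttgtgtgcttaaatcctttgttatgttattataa
mir-4936, III:3249233-3249313, plus strand: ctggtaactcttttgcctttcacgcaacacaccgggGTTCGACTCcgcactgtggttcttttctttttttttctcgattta
The match lay 40 bp from the summit at mir-51, 40 bp at mir-1829b and 59 bp at mir-4936. At mir-51 it falls inside the annotated ncRNA F36H1.17. Of the summits of the list thresholded by reproducibility that lay at miRNA starts, 3 of 11 (27.3%) had a match within 150 bp. The share was 14.7% over all 1319 nuclear summits of that list and 4.72% over the 1122 of them with no tRNA start within 500 bp. The search is a description of letters, and binding of TFIIIC was not measured. It was made after the sites were seen, the 11 summits are few, and no difference between these shares was tested.

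The other sequence searched was CTCCGCCC, a motif described upstream of worm miRNA genes, on both strands. It stood within 500 bp upstream of 27 of the 261 miRNA genes (10.3%) and of 3.23% of the 19973 protein-coding nuclear genes. The mir-35 cluster and the mir-61 and mir-250 pair each hold 1 copy, shown with the match in capitals and 36 bases on either side.
mir-35, mir-36 and mir-37, II:11537426-11537505, minus strand: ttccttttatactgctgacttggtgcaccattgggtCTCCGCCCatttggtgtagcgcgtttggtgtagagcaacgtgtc
mir-61 and mir-250, V:11770309-11770388, plus strand: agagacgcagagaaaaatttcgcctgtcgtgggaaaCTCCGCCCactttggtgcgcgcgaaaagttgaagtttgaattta
Of the 13 miRNA genes with a summit of the list thresholded by reproducibility, 5 carry the motif upstream, and these 2 copies account for all 5. The copies lay 143 bp upstream of mir-35 and 193 bp upstream of mir-61. Their distances from the nearest summit of that list were 100 bp and 228 bp. Among miRNA genes with a candidate site in the pooled reads, 15.7% had the motif, and among the 159 without one 6.92% had it. Genes of 1 cluster share upstream sequence, so these counts are not of independent genes.

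The values behind these sites are the authors' calls. Candidate sites were called from each replicate (24269 sites in replicate 1, 30000 in replicate 2) and from the pooled reads (30000 sites). A further list of 1341 sites was thresholded by the irreproducible discovery rate (IDR), and its sites are called IDR peaks below. The candidate lists are lenient and contain background by design. Each site has a signal value, a score of the authors' caller whose scale is not stated. It is the authors' value, and it serves here only to describe and rank sites within 1 list. The median signal value was 23.0 in the pooled list, 10.3 in replicate 1, 18.2 in replicate 2 and 100.6 in the IDR list. A site counted for a miRNA gene if the distance from summit to gene start was at most 500 bp. The annotated start of a miRNA gene is here usually the end of the hairpin: in 258 of the 260 genes with a mature sequence, the first mature base lay at most 157 bp from it. The exceptions are let-7, annotated as X:14743590-14745321 with its first mature base 1066 bp from the start, and mir-8199 (420 bp). Read depth is unknown, so no error can be given for a single signal value.

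An IDR peak lay at the start of 13 miRNA genes, 4.98% of the 261 (exact 95% interval 2.68 to 8.37%), against 2.73% of all nuclear genes and 2.91% of protein-coding genes. The 13 genes had 11 distinct summits between them, because mir-35, mir-36 and mir-37 share 1 summit, mir-61 and mir-250 share 1, and mir-45 has 2. Intervals of this kind treat genes as independent and cover counting error only. The share of miRNA genes was above that of ncRNA genes (3.55%). Its interval holds that value and those of all nuclear and protein-coding genes, so the count does not separate miRNA genes from them. The miRNA share was far below that of tRNA (37.9%), snoRNA (25.7%) and snRNA genes (24.0%). Among lincRNA genes the share was 2.06% and among piRNA genes 0.23%. The 15363 piRNA genes are counted among all nuclear genes and lower the share given for them. This also holds for the pooled list, where 14.7% of piRNA genes had a candidate. Counting the 1341 strongest candidates of each replicate in place of the IDR list gave 10 miRNA genes in replicate 1 (3.83%, against 2.41% of all nuclear genes) and 13 in replicate 2 (4.98%, against 2.69%). The mean of these 2 replicate shares was 4.41% ± 0.813 (SD, n = 2).

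**Figure D1:**
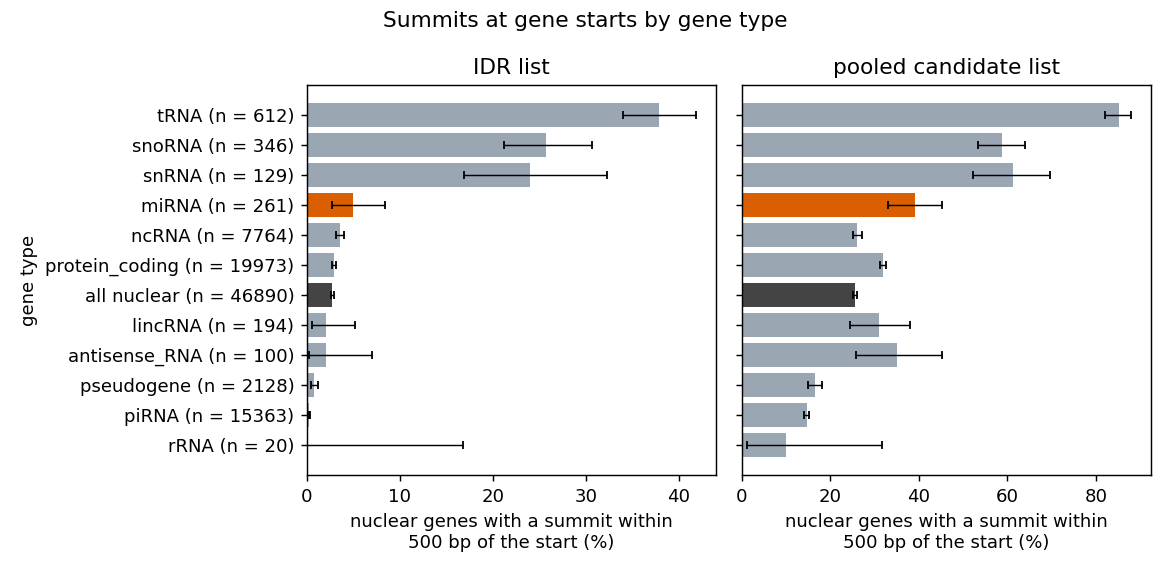
Share of nuclear genes of each type with a summit within 500 bp of the start, in percent, for the IDR list (left) and the pooled candidate list (right); n is the number of genes and error bars are exact 95% binomial intervals. Orange marks miRNA genes (4.98% and 39.1%) and dark grey all nuclear genes (2.73% and 25.6%).

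Candidate sites were more widespread. A pooled candidate lay at 102 miRNA genes (39.1%, exact 95% interval 33.1 to 45.3%), against 25.6% of all nuclear genes and 31.9% of protein-coding genes. Replicate 1 had a candidate at 81 miRNA genes (31.0%, against 21.9% of all nuclear genes) and replicate 2 at 100 (38.3%, against 26.0%), a mean of 34.7% ± 5.15 (SD, n = 2). Both replicates had one at 63 miRNA genes (24.1%), against 13.4% of all nuclear genes and 18.2% of protein-coding genes. A further 18 miRNA genes had a candidate in replicate 1 only and 37 in replicate 2 only, and 143 had none in either. The plot of shares by gene type places miRNA genes between protein-coding genes and the tRNA, snoRNA and snRNA genes in both lists.

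Where a pooled candidate was present, the strongest signal value at a miRNA gene was 37.1 at the median, 14.7 at the lowest and 294 at the highest gene. The corresponding median at protein-coding starts was 28.5. In replicate 1 the values ran from 7.14 to 83.3 (median 15) and in replicate 2 from 11.6 to 214 (median 26.3). Over the 63 miRNA genes with a candidate in both replicates, the log2 signal values had a Pearson r of 0.69 and a Spearman rho of 0.54. This is a description over genes, some of which share 1 summit, and both lists share mappability and base composition. The replicate summits lay a median of 136 bp apart, and 19 of the 63 pairs lay within 100 bp.

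The genes with IDR peaks are described one by one or with their paralogue or neighbour, with the rank in each list. The highest pooled signal value was at mir-45, a gene of the mir-44 seed family (II:11880944-11881039, minus strand). It was 293.9 at rank 36, with 83.3 at rank 40 in replicate 1 and 214 at rank 40 in replicate 2. The summit lay 370 bp downstream of the mir-45 start, outside the hairpin, and 81 bp past the 3′ end of top-2, which encodes a DNA topoisomerase. Its second IDR peak had a signal value of 81.0 (rank 1096), lay 161 bp downstream of the mir-45 start and was also past the end of top-2, by 290 bp. Of the pair, the summit nearer to top-2 was the stronger in the pooled list and in both replicates.

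The next highest was at mir-51 (IV:11026013-11026112, minus strand), with a pooled signal value of 227.7 at rank 66. Replicate 1 gave 82.1 at rank 43 and replicate 2 gave 163 at rank 79. The pooled summit lay 7 bp upstream of the hairpin, 12 bp past the end of the ncRNA F36H1.17 and 249 bp past the 3′ end of alh-3, an aldehyde dehydrogenase family gene. Replicate 2 had a pair of summits there, 95 bp downstream and 104 bp upstream of the mir-51 start, and the pooled summit fell between them.

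At mir-4936 (III:3249151-3249260, plus strand) the pooled signal value was 140.4 at rank 259, with 39.9 in replicate 1 (rank 385) and 105 in replicate 2 (rank 246). The summit lay in the hairpin, 63 bp from its start, and 125 bp past the 3′ end of Y53G8AL.4. mir-8196b and mir-8196a, far apart on the X chromosome, both had the pooled summit inside the annotated hairpin. mir-8196b (X:14324355-14324517, minus strand) lies antisense in an intron of the peroxin gene prx-1, had a pooled signal value of 116.0 at rank 436, and gave 31.7 (rank 690) in replicate 1 and 88.4 (rank 403) in replicate 2. mir-8196a (X:2328994-2329124, plus strand) had 93.3 at rank 798, 34.9 (rank 555) in replicate 1 and 61.1 (rank 1061) in replicate 2. Its replicate 1 summit lay beyond the hairpin, 260 bp downstream of the start. The pooled summit of mir-8196a lay 18 bp past the end of linc-154. The annotated hairpins of this pair were 67.9% identical over 165 aligned columns, and whether reads were shared between them was not tested.

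mir-1829b (X:14977119-14977178, plus strand) lies in the sense direction in an intron of F20D1.3 and had a pooled signal value of 99.3 at rank 694. Replicate 2 gave 86.4 at rank 433 with the summit at the same base, 3 bp upstream of the hairpin. Replicate 1 gave 19.0 at rank 2644, with its summit 130 bp downstream. Its paralogue mir-1829c, 90.3% identical over the hairpin, had no IDR peak but a pooled signal value of 63.2.

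The mir-35 cluster holds mir-35 to mir-41 on the plus strand of chromosome II, antisense in an intron of Y62F5A.9. Its IDR peak at II:11537365 had a pooled signal value of 96.4 at rank 730. It lay 243 bp upstream of mir-35, 348 bp upstream of mir-36 and 468 bp upstream of mir-37, outside every hairpin and 162 bp upstream of the ncRNA Y62F5A.16. The replicates differed in rank here. Replicate 2 had the summit at the same base with 83.2 at rank 481, and the nearest replicate 1 summit lay 357 bp upstream of mir-35 with 15.7 at rank 4368. A second pooled candidate (38.2, rank 5286) lay within the cluster and is the strongest within 500 bp of mir-38, mir-39, mir-40 and mir-41. No protein-coding start or 3′ end lay within 500 bp of the IDR peak.

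mir-5549 (III:6971976-6972085, minus strand) had a pooled signal value of 81.9 at rank 1068, with 32.7 in replicate 1 (rank 649) and 48.4 in replicate 2 (rank 1833). The summits of the lists lay close together, 4 bp upstream of the start in replicate 1, 7 bp downstream in replicate 2 and 2 bp upstream in the pooled list. The gene lies between the starts of eef-1A.1, a translation elongation factor gene, and rfc-4, a replication factor C subunit gene, with the summit 375 bp and 166 bp upstream of them. mir-61 (V:11770060-11770156, minus strand) and mir-250 (V:11769917-11770015, minus strand) shared a summit of 80.2 at rank 1128 inside the mir-61 hairpin, 36 bp from its start. mir-61 is known as a target of LIN-12/Notch signalling in the vulva. Replicate 2 had its summit at the same base (66.6, rank 875), and replicate 1 had 20.7 at rank 2098 at a distance of 123 bp upstream of mir-61. The summit lay 221 bp past the 3′ end of sel-11, a ubiquitin ligase gene of the endoplasmic reticulum, and 347 bp upstream of F55A11.4.

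**Figure D2:**
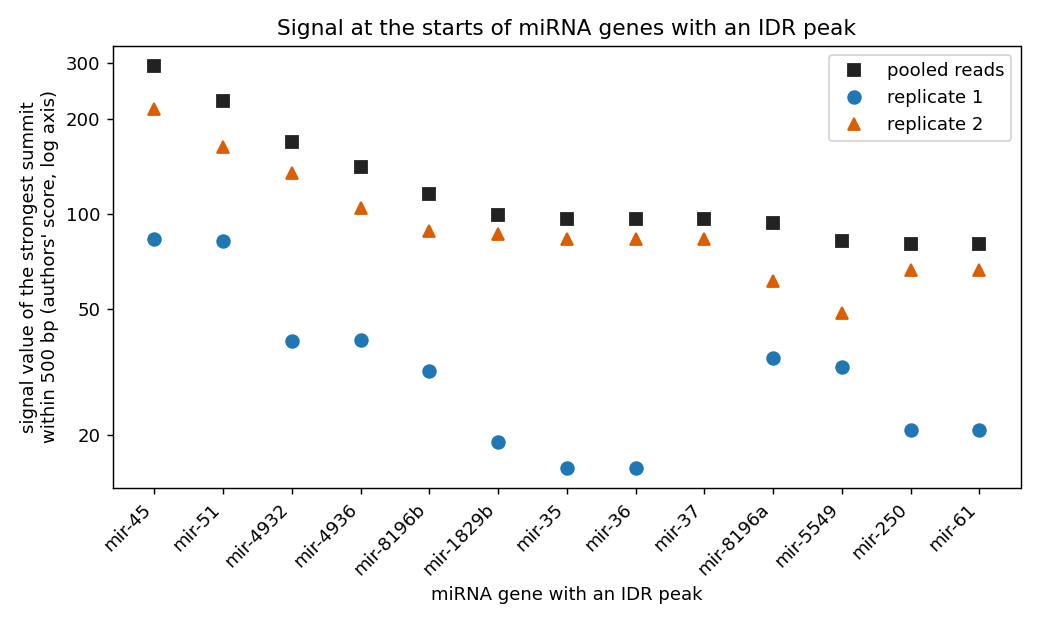
Signal value (authors' score, log axis) of the strongest summit within 500 bp of the start of each of the 13 miRNA genes with an IDR peak, in the pooled reads (squares), replicate 1 (circles) and replicate 2 (triangles), ordered by pooled signal. The order of lists is the same at every gene with all 3 values, scales are not comparable between lists, and mir-37 has no replicate 1 point.

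The remaining gene of the 13 was mir-4932 (I:9512307-9512416, plus strand). Its pooled signal value, between those of mir-51 and mir-4936, was 169.1 at rank 155, with 39.6 at rank 392 in replicate 1 and 134 at rank 135 in replicate 2. The replicate 1 summit lay 125 bp downstream of the start, beyond the hairpin. The pooled summit of mir-4932 lay in the hairpin, 77 bp from the start. It falls in the gap between smn-1, the worm gene of the survival motor neuron protein, and klp-16, a kinesin-like gene. Both are transcribed away from it, with starts 148 bp and 68 bp from the summit, and 75.5% of the mir-4932 gene is soft-masked repeat. Of the 13 genes, 7 were among the 1341 strongest candidates of replicate 1, 12 among those of replicate 2 and 6 among both. At all 13, the strongest summit had the same rank in the IDR list as in the pooled list. By rank, the replicates were furthest apart at mir-35 and mir-36 (4368 in replicate 1, 481 in replicate 2) and at mir-1829b (2644 and 433). In the plot of signal by gene, mir-37 has no replicate 1 point.

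**Figure D3:**
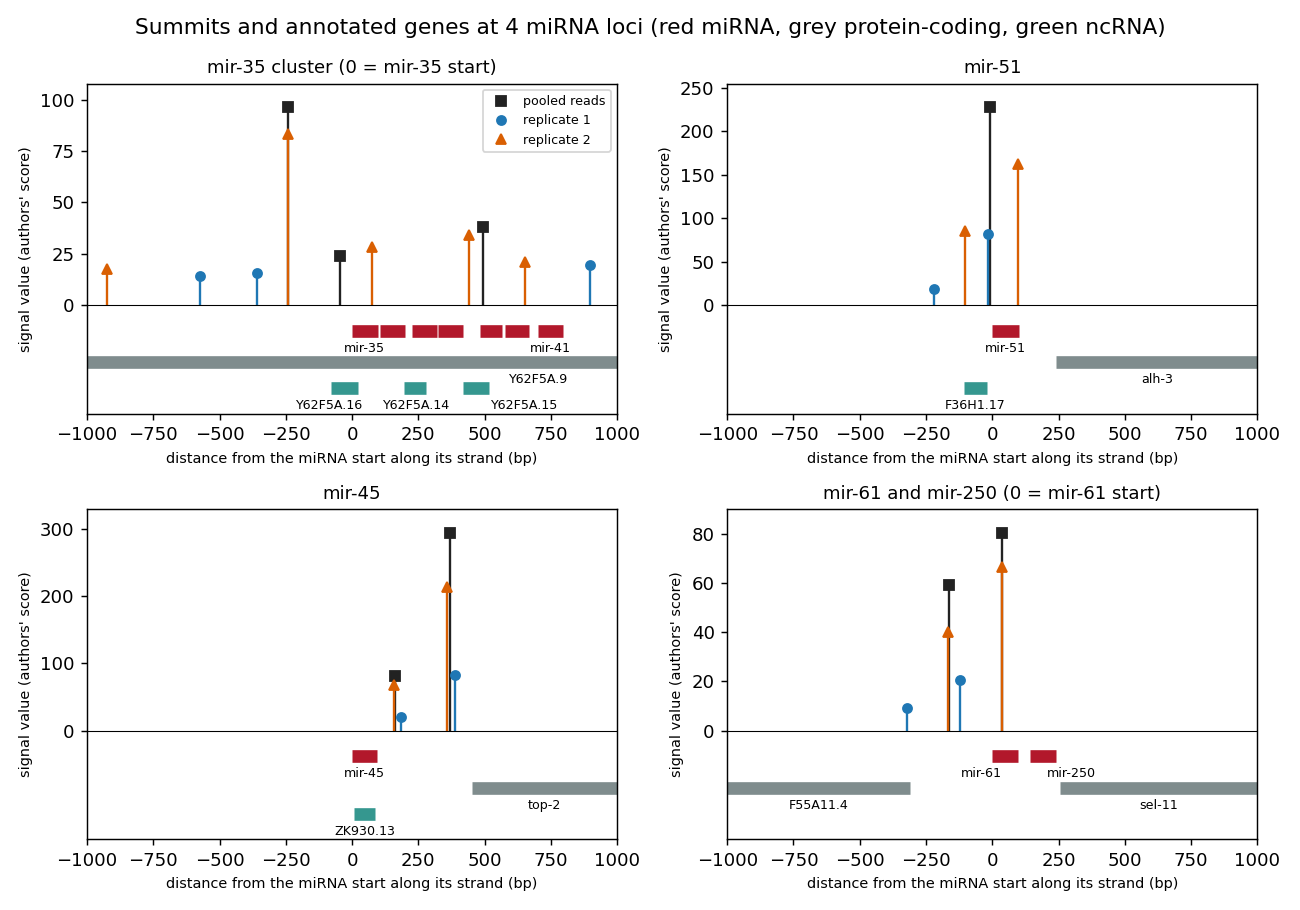
Summits (stems, height is the signal value as the authors' score) and annotated genes within 1000 bp of the starts of mir-35, mir-51, mir-45 and mir-61, oriented along the strand of the miRNA; boxes show miRNA (red), protein-coding (grey) and ncRNA (green) genes. The strongest stem stands 243 bp upstream of mir-35, at the mir-51 start, 370 bp downstream of mir-45 towards top-2 and 36 bp inside mir-61.

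Many of these positions also fell near coding genes. Of the 13 genes, 7 had a summit that also lay within 500 bp of a protein-coding start or 3′ end, and the other 6 (mir-8196a, mir-8196b, mir-1829b and mir-35 to mir-37) had none. Counted by summit, 3 of the 11 were at a coding start (27.3%, against 39.7% of all 1319 nuclear IDR peaks) and 5 at a coding 3′ end (45.5%, against 63.4%). Either feature applied to 7 of 11 (63.6%, against 77.8%). In these counts mir-45 enters with 2 overlapping peaks, both past the 3′ end of top-2. None of the 11 lay within 500 bp of the start of a tRNA, snoRNA, snRNA or rRNA gene, compared with 25.2% of all nuclear IDR peaks. The summit was in a soft-masked repeat at 1 of 11 (9.09%), against 20%, and the median GC content within 150 bp of the summit was 40.5%, against 38.2%. Peaks at these genes had a median width of 456 bp, the same as all IDR peaks. Most of them were exactly 456 bp wide, so nothing is read from the equal medians.

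The 102 strongest pooled summits at miRNA genes were compared with all pooled candidates in the same way. A coding start or 3′ end lay within 500 bp of 32 of them (31.4%), against 43.5% of all nuclear pooled candidates. A tRNA, snoRNA, snRNA or rRNA start lay near 5 (4.90%, against 3.31%), and 65 (63.7%, against 54.4%) had none of these features. The miRNA genes themselves differ in how close they lie to coding genes. A coding start or 3′ end lay within 500 bp of the start of 69 miRNA genes, of which 7 had an IDR peak and 32 a pooled candidate. Among the other 192, 6 had an IDR peak and 70 a pooled candidate.

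Along the strand of the miRNA gene, the bins next to the start held the most summits. A pooled summit lay in the 250 bp upstream of the start in 15.7% of miRNA genes and in the 250 bp downstream in 13.8%, against 12.4% and 10.9% of protein-coding genes. From 750 bp downstream of the start outward, the bins held 6.51 to 8.81% of miRNA genes. Nearer the start, the downstream bins held 12.6% from 250 to 500 bp and 11.5% from 500 to 750 bp. Upstream the bins beyond 500 bp held 8.05 to 11.5%, and the bin from 500 to 250 bp upstream held 11.1%. The strongest pooled summit was upstream in 49 genes and at or downstream of the start in 53. It lay within 150 bp of the start in 37 of the 102 genes with a pooled candidate and in 9 of the 13 with an IDR peak.

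**Figure D4:**
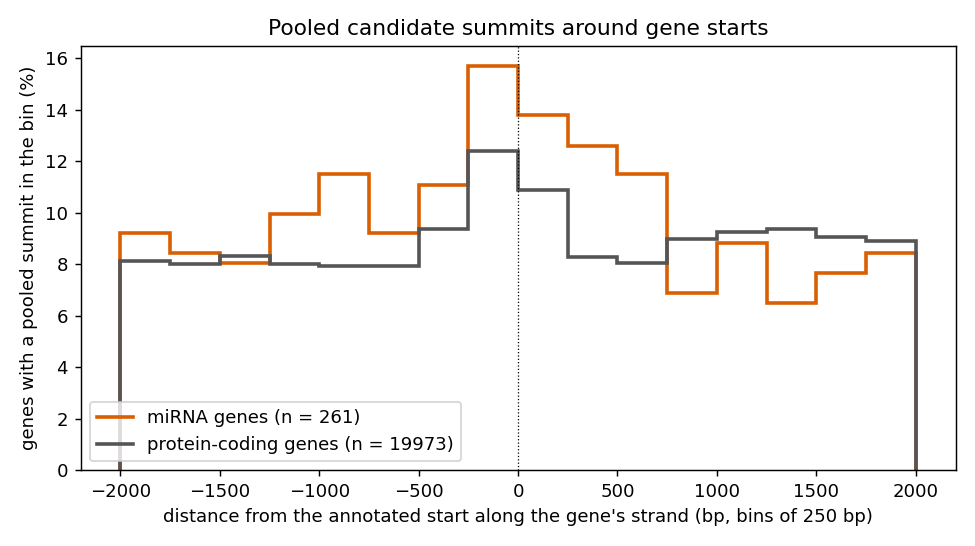
Percent of genes with at least 1 pooled candidate summit in each 250 bp bin within 2000 bp of the annotated start, along the strand of the gene, for 261 miRNA genes (orange) and 19973 protein-coding genes (grey). Both lines are highest in the bin just upstream of the start, at 15.7% and 12.4%.

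A miRNA gene wholly inside a protein-coding gene on the same strand can be made from the transcript of that host. Pooled candidates lay at 39 of the 74 miRNA genes with such a sense host (52.7%), at 16 of the 32 with an antisense host (50%) and at 47 of the 155 with no host (30.3%). IDR peaks lay at 1 of the 74 (1.35%), 4 of the 32 (12.5%) and 8 of the 155 (5.16%), against 4.98% of all miRNA genes, and 3 of the 4 with an antisense host (mir-35, mir-36 and mir-37) share 1 summit. Most hosted genes were intronic, 68 of the sense and 30 of the antisense group. For sense hosts, the strongest pooled summit lay within 500 bp of the start of the host in 5 of 39 genes and of its 3′ end in 5. For antisense hosts it lay at the host start in 2 of 16 and at its 3′ end in 0.

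By chromosome, pooled candidates lay at 17 of 27 miRNA genes on chromosome III (63.0%, against 47.7% of protein-coding genes there), 17 of 33 on I (51.5%, against 45.6%), 23 of 49 on II (46.9%, against 33.7%), 18 of 50 on IV (36%, against 34.7%), 8 of 28 on V (28.6%, against 21.3%) and 19 of 74 on X (25.7%, against 16%). The miRNA genes thus followed the order of the chromosomes among protein-coding genes in that X and V were lowest and I and III highest. On X, 3 of 74 miRNA genes had an IDR peak (4.05%), against 16 of 2731 protein-coding genes (0.586%) and 3.69% of all nuclear genes of that chromosome. The names mir-8196a, mir-8196b and mir-1829b cover all 3.

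With starts at most 2 kb apart on 1 strand taken as a cluster, 59 miRNA genes fell into 21 clusters. An IDR peak lay at a member of 3 of them: the mir-35 cluster, mir-61 with mir-250, and mir-51 with mir-53. With the strongest candidates of replicate 1 alone in place of the IDR list, without replicate 2, the count fell from 3 to 1. A pooled candidate lay at a member of 12. In the mir-35 cluster of 7 genes, all 7 had a pooled candidate within 500 bp, and in the clusters of mir-229, mir-64, mir-65 and mir-66 and of mir-54, mir-55 and mir-56 every gene had one in the pooled list and in both replicates. Neighbours in a cluster share summits, so 223 single genes and clusters were also counted once each, and 10 of these had an IDR peak.

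miRNA families were taken as lists of gene names, and not every listed gene carries the seed of the others. They are given by the number of members with a pooled candidate, beside 39.1% of all miRNA genes and 25.6% of all nuclear genes. No difference between families was tested, and members of a family often share a summit. All 8 genes of the mir-35 family had a pooled candidate, from 17.4 at mir-42, which lies in another cluster with mir-43 and mir-44, to 96.4 at mir-35, mir-36 and mir-37, and these rest on 3 distinct summits. A candidate was present in both replicates at 5 of the 8, but the summits of the replicates did not coincide. The strongest at mir-35 lay 357 bp upstream of the start in replicate 1 and 243 bp upstream in replicate 2. At mir-39 it lay 418 bp downstream in replicate 1 and 39 bp upstream in replicate 2. All 6 genes of the mir-51 family had a pooled candidate, with 227.7 at mir-51, 39.7 at mir-52, 24.6 at mir-53 and a shared 38 at mir-54, mir-55 and mir-56. The summits at mir-52, at mir-53 and at the mir-54 cluster are each distinct from the one at mir-51. In the mir-64 family 4 of 5 had one, with 55.2 at mir-229, a shared 39.3 at mir-64, mir-65 and mir-66, and none at mir-63. In the mir-44 family mir-45 (293.9), mir-61 (80.2) and mir-44 (17.4) had one and mir-247 had none.

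The genes listed for the let-7 and lin-4 families had an IDR peak at 0 of 9 and a pooled candidate at 5 of 9, beside 4.98% and 39.1% of all miRNA genes. At 9 genes these counts are no result about the families. mir-84, mir-793 and mir-795 had no candidate within 500 bp of the start in any list, and let-7 had none within 500 bp of the start of its long annotated gene. Measured from the first mature base, let-7 had a pooled candidate 348 bp upstream with a signal value of 19.1 (rank 20550) and one in replicate 2, 255 bp upstream, of 14.7 (rank 21470), with none in replicate 1. Both values were below the median of their list. Of the 7 genes in the let-7 family list, mir-794 had a pooled signal value of 55.9 (24.5 in replicate 1, 32.6 in replicate 2), mir-241 had 35.2 and mir-48 had 20.6. mir-241 had no candidate in replicate 2. lin-4 had 28.1, with 10.8 in replicate 1 and 19.7 in replicate 2, each a little above the median of its list. Its paralogue mir-237 had 70.6, just below the lowest IDR peak (73.95), with 66.8 in replicate 2 and no candidate in replicate 1. That pooled summit lay 45 bp upstream of the start of a tRNA gene, with a second tRNA gene 322 bp away.

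The mir-58 family is known to hold some of the most abundant miRNAs of the worm. It was listed by annotated name as mir-58a to mir-58c, mir-80 to mir-82 and mir-2209a to mir-2209c. Of these 9 genes 2 had a pooled candidate, close to the 25.6% of all nuclear genes. These were mir-80 (60.6, with 14.1 in replicate 1 and 49.6 in replicate 2) and mir-58a (34.6). The 9 genes do not all share 1 seed. The seed GAGAUCA was carried by 6 genes, mir-58b, mir-58c, mir-80 to mir-82 and mir-2209a, of which 1 (mir-80) had a pooled candidate. mir-1 (muscle), mir-34, mir-124 (sensory neurons) and lsy-6 (asymmetry of a neuron pair) had no pooled candidate, and mir-71, known for its effect on life span, had 26.0 with a candidate in replicate 1 but none in replicate 2. Of the 23 genes listed for the let-7, lin-4, mir-58 and mir-64 families, 0 had an IDR peak, beside 4.98% of all miRNA genes and 2.73% of all nuclear genes. A share of that size gives few or no genes among 23, so nothing is read from the count.

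**Figure D5:**
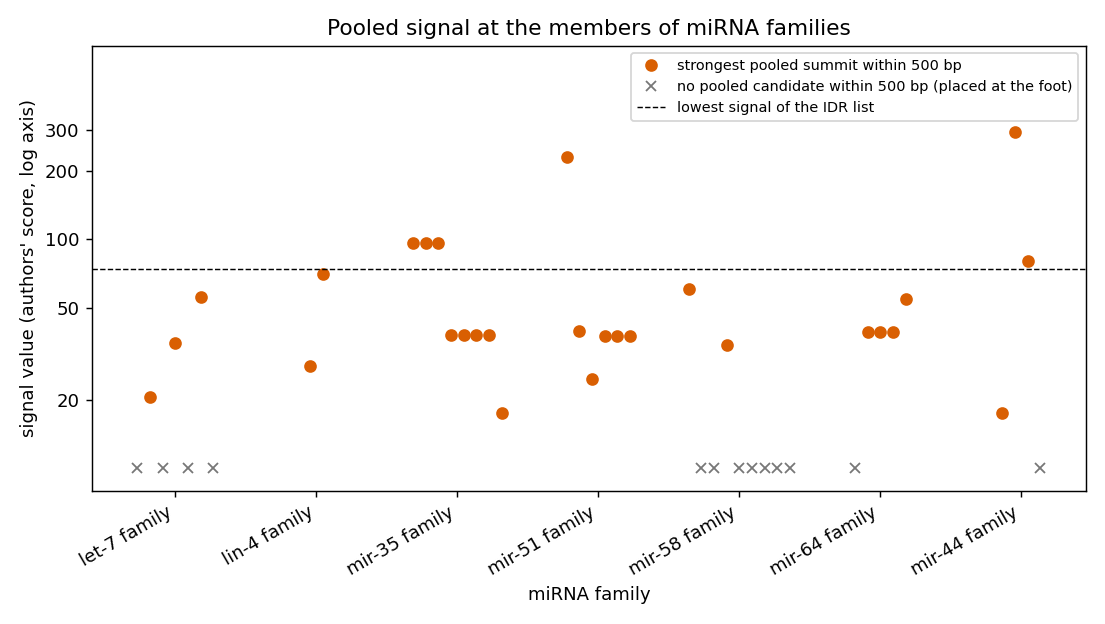
Strongest pooled signal value (authors' score, log axis) within 500 bp of the start of each member of 7 miRNA families; crosses at the foot mark members with no pooled candidate within 500 bp of the annotated start (let-7 had one of 19.1 near its mature sequence) and the dashed line is the lowest signal of the IDR list, 73.95. Every member of the lin-4, mir-35 and mir-51 families has a point, and most of the genes listed by name for the mir-58 family are crosses.

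Just below the IDR list came mir-354, whose pooled candidate was the first one under it (73.9, rank 1342). mir-354 lies in an exon of rps-20, a ribosomal protein gene, and the summit lay 168 bp past the 3′ end of rps-20 and 50 bp into Y105E8A.14. After mir-237 followed mir-5594 (69.3, in an intron of K12D12.4, 149 bp past the 3′ end of the nucleoporin gene npp-3), mir-2214 (67.2, in an intron of B0361.11) and mir-4920 (63.9, in an intron of sph-1, 88 bp upstream of its start). mir-1829c (63.2) lies in an intron of the phosphoinositide 3-kinase gene piki-1, with its summit 53 bp past the end of a tRNA gene. mir-4926 (62.7, in an intron of ari-1.3), mir-80 (60.6), mir-4813 (59.2, in an exon of the isocitrate dehydrogenase gene idhg-1, 3 bp before its 3′ end) and mir-794 (55.9) complete the next 10. Of these 10, 7 had a protein-coding sense host, against 1 of the 13 with an IDR peak. The same held for 39 of the 102 with a pooled candidate and for 74 of all 261 miRNA genes. The groups of 10 and 13 are small and split only by the IDR threshold, some of the 13 share a summit, and no difference was tested.

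The miRNA genes just beyond 500 bp of an IDR peak were mir-1830 (539 bp), mir-38 (568 bp), mir-243 (650 bp), mir-39 (724 bp) and mir-40 (819 bp), each downstream of the peak. mir-243 is known to load into RDE-1, an Argonaute of the RNA interference pathway, and had its own pooled candidate of 25.9, with 16.5 in replicate 1 and none in replicate 2. mir-1830 had no pooled candidate within 500 bp. The 3 others belong to the mir-35 cluster.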

How the data were processed

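ChIP-seq sites of 2 biological replicates were used as deposited on build ce11, whose chromosome lengths were checked against WBcel235. Lists on ce10 were not used. The signal value is a score that the authors' caller gave each site. Aligner, caller, IDR threshold and the scale of that score: not given in the sources used here. The lists hold no read counts, so depth is unknown. The Ensembl release 115 annotation gave 261 miRNA genes, with current symbols and mature sequences from RefSeq. The summit is the list's start (column 2) plus its summit offset (column 10), counted from 1, and sites were ranked by column 7. Counts used Python 3.11.15, pandas 2.3.3 and numpy 2.4.6, with exact 95% Clopper-Pearson intervals from scipy 1.17.1, and the counting was tested on simulated data. No p-value was computed. Named were all genes with an IDR peak, the 10 next by pooled signal, the 5 just beyond 500 bp, and listed families. Members and lists were chosen with earlier results of these data known, and the motif searches after the sites were seen.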

Additional observations from a re-analysis of the deposited data

How the results depend on the processing

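The count of 13 miRNA genes with an IDR peak was 21 within 1000 bp, 5 with the 670 strongest IDR peaks and 6 without summits at coding starts or ends. From single replicates it was 10 to 13, with 7 of the 13 genes kept in replicate 1 and 12 in replicate 2. The 102 genes with a pooled candidate became 61 within 200 bp, and 81 to 100 from single replicates. The 63 genes with candidates in both replicates became 25 within 200 bp and 6 among the 1341 strongest of each. The 7 genes at coding starts or ends became 3 within 200 bp and 4 with the 670 strongest, and 6 to 8 from single replicates. The 3 clusters became 1 with the 670 strongest, and 1 to 3 from single replicates, where 1 was without replicate 2. A change of window, list size or feature changes by definition what is counted. The counts from single replicates rest on the calls of 1 replicate, so differences between the replicates enter them. The 3 clusters became 2 within 200 bp, a change of 1.5 times. Measured from the first mature base, an alternative chosen after seeing the data, the counts were 13, 103 and 65. The other alternatives moved these counts by less than 1.5 times. No paired analysis was possible because the labels give 1 group. Limits are the lack of a control or untagged sample, the unknown read depth, annotated starts that are not those of primary transcripts, and 2 replicates.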
